A study of Mus musculus with 21 samples.

Results

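Muscle stem cells (MuSCs, or satellite cells) lie quiet beneath the sheath of the muscle fibre. After injury they activate, divide and give rise to myoblasts, which commit, withdraw from the cell cycle and fuse into new fibres. Single-cell atlases of muscle place each such cell on this path by its transcripts, and some cells labelled as stem or progenitor cells are given no named state on it. The cells described here are those. They carried the label MuSCs or Myoblasts/Progenitors after batch correction with Harmony, and they held none of the 4 states set along the pseudotime axis of the study, which run from quiescent and activated MuSCs through committed myoblasts to fusing myocytes. The states cover a part of that axis, so a cell without one may still have a place on it. There were 812 such cells among 2945 with either label (27.6%) and among 87822 cells in all (0.925%). They comprised 628 of the 1953 cells labelled MuSCs (32.2%) and 184 of the 992 labelled Myoblasts/Progenitors (18.5%).

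The samples were single-cell suspensions of tibialis anterior muscle from female C57BL/6J mice aged 20 months, with 1 mouse per sample. Muscles were left uninjured (4 mice) or were taken at 1 (4 mice), 2 (3 mice), 3.5 (4 mice), 5 (3 mice) or 7 (3 mice) days post-injury (dpi) with notexin, a phospholipase from snake venom that destroys muscle fibres. All mice were of the same strain, sex and age, so the time points cannot be compared with young muscle. Samples are named by time point and replicate letter.

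Samples held 974 to 10556 cells and 5602460 to 70730200 transcripts counted by unique molecular identifiers (UMIs). The number of stem and progenitor cells ranged from 9 to 399 per mouse, and the number without a state from 5 to 100, with a median of 28. Uninjured D and 1 dpi B each had only 9 stem and progenitor cells, of which 5 were without a state, so their shares are imprecise. Libraries shared few cell barcodes: at most 0.418% of the smaller library over 210 pairs. A barcode found in another library was carried by 15 of the 812 cells (1.85%), against 2.20% of all cells. Doublets had been removed by the authors, and 0 cells were marked as such.

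Whether these cells were muscle cells was checked against the labels from BBKNN and Scanorama, which corrected the batches in other ways and were clustered and labelled separately. Values for Pax7, which marks satellite cells, and Myod1, which marks activated cells and myoblasts, were not used here, so the label was not checked against its genes. Of the 812 cells, 366 were myogenic in both other methods and 144 were myonuclei in both. A further 15 were myogenic in one and myonuclei in the other. The remaining 287 were placed in a class outside muscle by at least 1 of the methods. Of these 287 cells, 215 had such a class in both methods, 64 in BBKNN alone and 7 in Scanorama alone, 1 had it in BBKNN and no label in Scanorama, and 202 had the same class in both. Among the 2133 stem and progenitor cells with a state, 0 had a class outside muscle, with a limit of 0.141% for counting error alone. Of these 2133, 16 were myonuclei in both other methods and 8 myogenic in one and myonuclei in the other. The authors chose cells for the pseudotime axis by consensus of their types in all 3 methods. A class outside muscle would then keep a cell from a state. The 0 cells with such a class thus follow from how states were given and are a description. For 215 cells both other methods thus went against the label and for 71 only one of them did, and the cells are called here cells without a state.

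The share of stem and progenitor cells without a state was highest at 1 and 2 dpi. It was 41.9%, 25.0%, 21.3% and 55.6% in the uninjured mice. At 1 dpi it was 70.6%, 55.6%, 82.5% and 75.8%, and at 2 dpi it was 92.6%, 87.5% and 76.0%. All 3 mice at 2 dpi lay above all uninjured mice, while 1 dpi B had the same share as uninjured D. At 3.5 dpi the shares were 21.8%, 17.8%, 23.8% and 21.3%. They were 15.2%, 20.6% and 16.4% at 5 dpi and 19.5%, 22.8% and 33.8% at 7 dpi. All mice at 5 dpi lay below all uninjured mice, whereas those at 3.5 and 7 dpi overlapped with them. The high share at 2 dpi was that of MuSCs, of which 146 of 156 lacked a state, against 43 of 172 in uninjured muscle. The few Myoblasts/Progenitors did not follow it, with 7 of 9 lacking a state in uninjured muscle, 4 of 5 at 1 dpi and 1 of 9 at 2 dpi. The exact (Clopper-Pearson) 95% interval of the share was 21.2% to 86.3% in uninjured D and 85.9% to 96.7% in 2 dpi A, which covers counting error only.

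The share differed between the 6 time points (permutation F test over 21 mice, on arcsine-transformed square roots of the shares, p = 2.0e-05, adjusted p = 6.0e-05 over 3 shares tested). Its largest difference from uninjured muscle was at 2 dpi, with 85.4% ± 8.50 (SD, n = 3) against 36.0% ± 15.8 (SD, n = 4). Taken singly, no time point passed the exact permutation test against uninjured muscle after adjustment. In order of time the unadjusted exact p was 0.0571, 0.0286, 0.0857, 0.114 and 0.343, and the first 4 had an adjusted p of 0.143, so 1 of 5 passed before adjustment. The smallest exact p for these numbers of mice is 0.0286, which 2 dpi reached, and a single time point with that p has an adjusted p of 0.143. Of the cells without a state, 90 of 94 at 1 dpi and 139 of 147 at 2 dpi had a class outside muscle. Such a class keeps a cell from a state by the choice of cells for the axis, so the high share there largely restates these classes.

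Counted against all muscle-class cells of Harmony, myonuclei included, the cells without a state were also most frequent at 2 dpi on average, with 60.6%, 35.9% and 12.5% against 2.39% to 6.74% in the uninjured mice, without overlap. The values at 1 dpi were 8.33%, 2.13%, 72.2% and 20.8%. With this denominator the time points did not pass the test (permutation F test over 21 mice, p = 0.126), at a difference of 32.5 points between 2 dpi and uninjured muscle. Of the stem and progenitor cells that all 3 methods placed in muscle, 4 of 32 at 1 dpi and 8 of 26 at 2 dpi were without a state. Leaving out cells with a class outside muscle removes only cells without a state, so these shares have to be lower and are not read as a change over time.

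**Figure D1:**
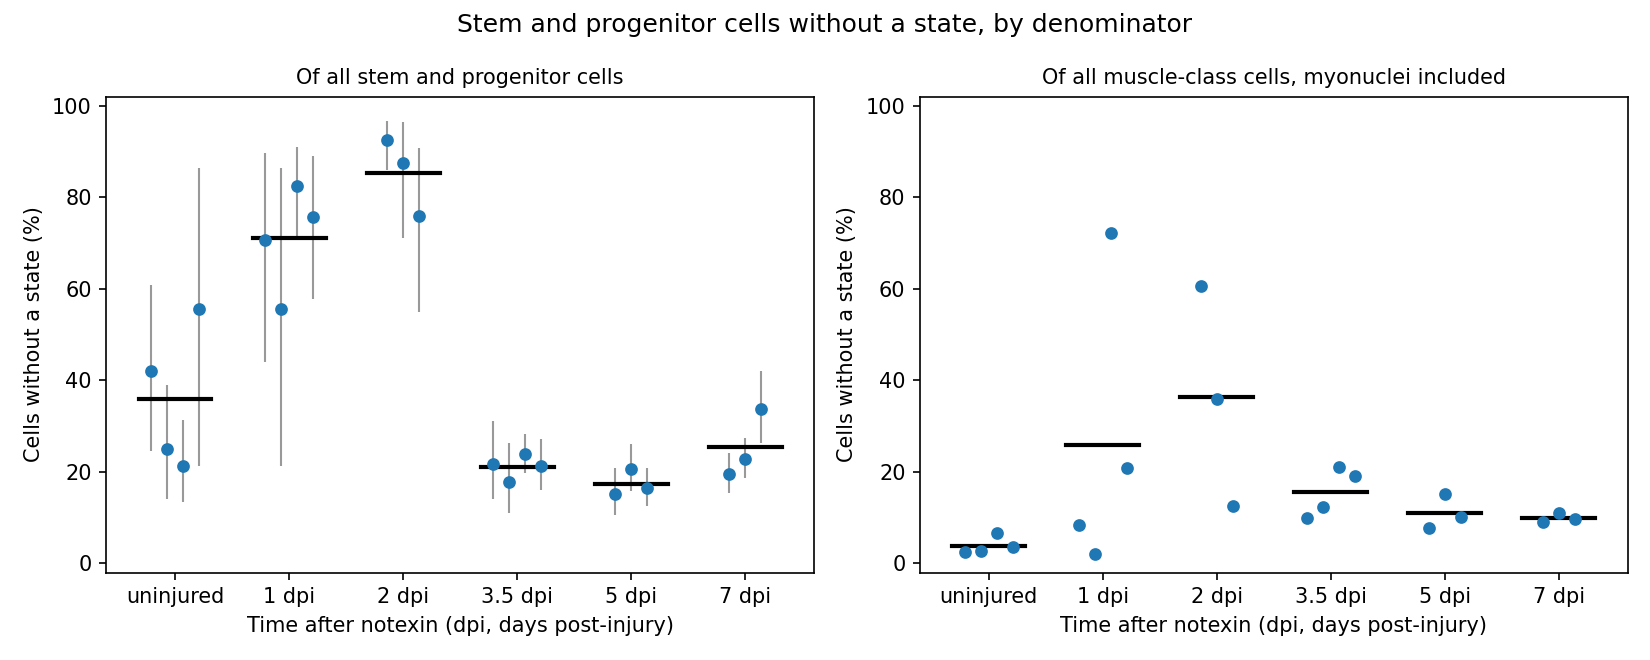
Cells without a state in each mouse (points, percent) and the mean of each time point (black lines). Left, of all cells labelled MuSCs or Myoblasts/Progenitors by Harmony, with exact 95% intervals in grey; the 3 mice at 2 dpi, at 76.0% to 92.6%, lay above the uninjured mice, at 21.3% to 55.6%. Right, of all muscle-class cells by Harmony, myonuclei included, where the 3 mice at 2 dpi, at 12.5% to 60.6%, lay above the uninjured mice, at 2.39% to 6.74%, and 1 dpi C, at 72.2%, was highest.

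As a share of all cells, those without a state were most frequent at 7 dpi. They made up 0.573%, 0.381%, 0.378% and 0.513% of the cells of the uninjured mice and 1.07%, 1.98% and 2.21% at 7 dpi. At 1 dpi the shares were 0.412%, 0.418%, 1.15% and 0.651%, and at 2 dpi they were 0.947%, 0.609% and 0.597%. They were 0.703%, 0.722%, 1.41% and 1.21% at 3.5 dpi and 0.601%, 0.614% and 2.11% at 5 dpi. All mice at 2, 3.5, 5 and 7 dpi lay above all uninjured mice, whereas those at 1 dpi overlapped with them. The time points differed (permutation F test over 21 mice, p = 0.0256, adjusted p = 0.0256), with a difference of 1.29 points between 7 dpi and uninjured muscle. In the same permutation test the call was lost without 7 dpi B (1.18 points, adjusted p = 0.0749) and without 7 dpi C (1.07 points, adjusted p = 0.0872). Stem and progenitor cells with a state made up 0.0758% to 0.188% of all cells at 2 dpi and 0.411% to 1.39% in uninjured muscle, so the pair of groups did not overlap. At 7 dpi cells with a state made up 4.33% to 6.72% of all cells. The rise at 7 dpi was thus not particular to cells without a state. Shares of all cells depend on how many other cells a muscle holds, and infiltrating cells are part of that total.

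The classes given by the other methods changed over time. A class outside muscle was given to 23.1%, 30.8%, 31.6% and 0% of the cells without a state in the uninjured mice. The share was 83.3%, 80.0%, 100% and 96.0% at 1 dpi and 98.0%, 89.3% and 84.2% at 2 dpi. It was 0%, 10.5%, 3.16% and 6.38% at 3.5 dpi, 3.13%, 23.1% and 12.5% at 5 dpi, and 15.6%, 8.33% and 0% at 7 dpi. All 7 mice at 1 and 2 dpi lay above the other 14. The 0% values rest on 5 cells in uninjured D, 22 in 3.5 dpi A and 50 in 7 dpi C. The time points differed (permutation F test over 21 mice, p = 4.0e-05, adjusted p = 6.0e-05), and the largest difference was 69.1 points, between 2 dpi and uninjured muscle. The means at 1 and 2 dpi were close, 89.8% and 90.5%. The largest difference lay at 1 dpi by the BBKNN label alone (68.5 points) and with at least 750 genes per cell (64.5 points). It also lay there under the strict filter (80.8 points, 16 mice) and without 1 dpi A, 1 dpi B or 2 dpi A. This test and that of the share without a state rest largely on the same cells at 1 and 2 dpi. They are not independent results.

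Myogenic labels in both methods prevailed in uninjured muscle and at 3.5 dpi, and myonuclei were frequent at 7 dpi. Cells that were myogenic in both methods made up 69.6% ± 22.5 (SD, n = 4) of those without a state in uninjured muscle, 5.17% ± 7.90 (SD, n = 4) at 1 dpi and 9.50% ± 6.97 (SD, n = 3) at 2 dpi. They made up 87.8% ± 8.75 (SD, n = 4) of those without a state at 3.5 dpi, 58.8% ± 6.81 (SD, n = 3) at 5 dpi and 35.0% ± 9.56 (SD, n = 3) at 7 dpi. Cells that were myonuclei in both averaged 7.69%, 5.00% and 0% in uninjured muscle and at 1 and 2 dpi, and 6.04% ± 7.09 (SD, n = 4), 25.5% ± 14.0 (SD, n = 3) and 51.8% ± 16.2 (SD, n = 3) at the later time points. These further classes were not tested over time.

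**Figure D2:**
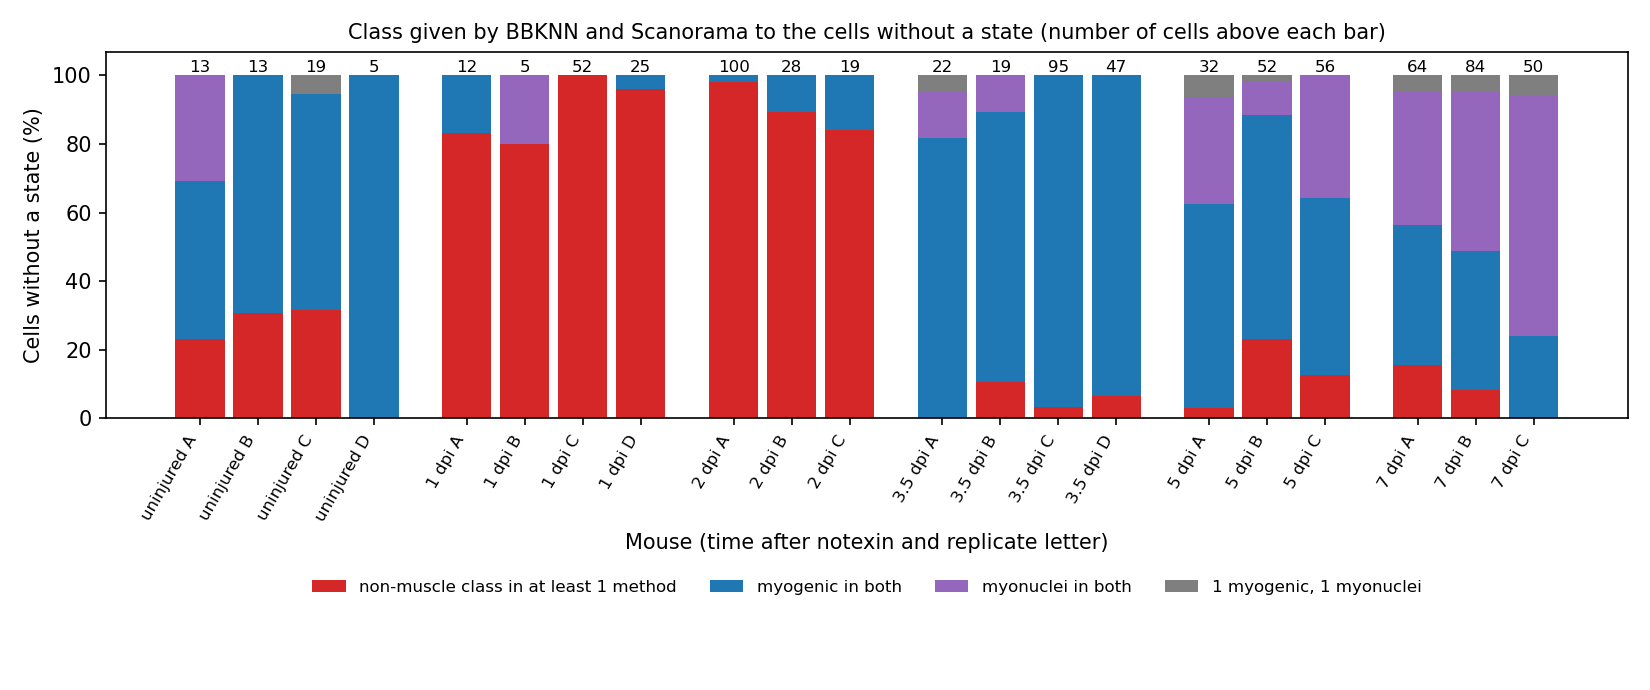
Share of the cells without a state in each mouse (bars, percent) by the class that BBKNN and Scanorama gave them, with the number of cells above each bar. Red, a class outside muscle in at least 1 method, stands at 80.0% to 100% in the 7 mice at 1 and 2 dpi. Blue, myogenic in both, prevails at 3.5 dpi, and purple, myonuclei in both, reaches 39.1% to 70.0% at 7 dpi.

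BBKNN gave 20 or more of the cells each of 7 labels. The most frequent was Committed Progenitors, with 296 cells. In order of time (uninjured, then the 5 time points after injury), 1, 0, 2, 170, 73 and 50 of these cells were found. Committed Progenitors was also the BBKNN label of 91.2% of the stem and progenitor cells with a state, so it was the broad muscle label of that method. BBKNN's label MuSCs was given to 70 cells, 30, 3, 4, 2, 9 and 22 in the same order, and thus chiefly in uninjured muscle and at 7 dpi. Myonuclei (Cell Prep), a label for fibre nuclei, was given to 159 cells, 5, 1, 0, 6, 38 and 109 in that order, and thus chiefly at the last time points.

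The other 4 BBKNN labels lay outside muscle. Infiltrating monocytes, which enter injured muscle from the blood, accounted for 108 cells, of which 99 were found at 2 dpi, 8 a day earlier, 1 at 3.5 dpi and 0 elsewhere. T cells accounted for 30, of which 23 were found at 1 dpi, 7 a day later and 0 elsewhere; 19 of the 23 came from 1 dpi C and 6 of the 7 from 2 dpi A. Capillary endothelial cells, which line the smallest vessels, accounted for 53 and were spread more widely, with 9, 22, 8, 1, 3 and 10 cells in order of time from uninjured muscle. Pro-remodeling fibro-adipogenic progenitors (FAPs), the matrix-producing stromal cells of muscle, accounted for 32, with 0, 14, 6, 1, 8 and 3 in that order. A further 64 cells were spread over 13 labels with fewer cells.

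Scanorama gave 442 of the cells the label Committed Progenitors, which it also gave to 99.1% of the stem and progenitor cells with a state. In order of time from uninjured muscle, it held 41, 20, 18, 172, 97 and 94 of them. Its Myonuclei (Cell Prep) held 144, with 4, 1, 0, 5, 35 and 99 in that order. Infiltrating monocytes held 112, of which 105 came from 2 dpi and 7 from the day before. Capillary endothelial cells held 32, with 2, 22, 4, 0, 3 and 1 in order of time, and thus chiefly at 1 dpi. NK cells held 30, of which 23 came from 1 dpi (19 of them from 1 dpi C) and 7 from 2 dpi (6 of them from 2 dpi A).

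By broad class, the methods matched closely for immune cells and less so for stromal cells. Of 135 cells in a myeloid class by BBKNN, 132 were myeloid by Scanorama as well, and of 33 lymphocytes 30 were. Those 30 were T cells by BBKNN and NK cells by Scanorama, so their labels differed within the class. Of 56 endothelial cells by BBKNN, 31 were endothelial and 24 myogenic by Scanorama. Of 39 FAPs, 8 were FAPs and 23 myogenic by Scanorama. A further set of deposited labels is named prefilter, and its origin is not stated. It called 508 of the 812 cells MuSCs and 136 Myoblasts/Progenitors, while 92 were capillary endothelial and 30 Type IIx myonuclei. Its label MuSCs included 191 of the 287 cells with a class outside muscle, and its capillary endothelial label 36 of the 366 cells that were myogenic in both other methods, against 2 of the 2133 with a state.

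The myeloid cells came chiefly from 1 mouse: 2 dpi A held 80 of the 135, with 20 in 2 dpi B, 17 in 1 dpi C and 8 in 2 dpi C. They had low transcript counts and high mitochondrial shares. Their median was 1282 UMIs in 1 dpi C, 1364 in 2 dpi A, 1701 in 2 dpi B and 1452 in 2 dpi C. Cells that all 3 methods called myeloid had medians of 7782, 4412, 8864 and 13964 UMIs in the same mice. The difference on the log2 scale averaged -2.49 ± 0.65 (SD, n = 4), with 0 of 4 mice higher (exact sign-flip test over mice, p = 0.125, the smallest p that 4 mice allow). Mitochondrial transcripts made up 20.2% of UMIs against 4.03% in the cells called myeloid by all methods, and were higher in 4 of 4 mice. Ribosomal protein transcripts made up 4.34% against 9.64%, and were lower in 4 of 4 mice. The doublet score, the share of simulated doublets among a cell's neighbours, averaged 0.0813 against 0.184.

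Cells without a state that BBKNN called endothelial differed from other endothelial cells in another way. In the 6 mice with at least 5 of them, the log2 UMI difference from cells endothelial in all methods averaged 0.78 ± 1.59 (SD) and was positive in 4 of 6 mice (exact sign-flip test, p = 0.250). The 2 mice at 1 dpi were lower, with medians of 1733 and 1286 UMIs against 2861 and 3911. Uninjured C, 2 dpi C, 7 dpi A and 7 dpi B were higher, with 8427, 5598, 15502 and 23495 UMIs against 2725, 2560, 4379 and 4376. Ribosomal protein transcripts made up 17.9% of UMIs against 8.45% in cells endothelial in all methods, and were higher in 6 of 6 mice. The doublet score was higher in 5 of 6 mice (0.251 against 0.153; exact sign-flip test, p = 0.0938, adjusted p = 0.375).

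FAPs and lymphocytes could be compared in 3 and 2 mice. Cells BBKNN called FAPs had medians of 1599 UMIs in 1 dpi C, 1235 in 2 dpi A and 10363 in 5 dpi B, against 12348, 4158 and 9938 in FAPs of all methods. Cells it called lymphocytes had 4681 UMIs in 1 dpi C and 2034 in 2 dpi A, against 3061 and 1619. Their ribosomal protein share was 6.47% against 17.7%. Over the 4 classes and 3 measures (UMIs, genes and doublet score), none of the 12 exact sign-flip tests could have passed after adjustment with these numbers of mice. Only the 3 endothelial tests could have had an unadjusted p under 0.05, and 0 of them had.

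Cells with a class outside muscle had a lower ribosomal protein share than the cells with a state in all 10 mice that held at least 5 of each. It averaged 13.0% against 25.2%. Transcription factor transcripts made up a higher share in 10 of 10 mice, 4.50% against 3.18%. Log2 UMIs were higher by 0.42 and log2 genes by 0.35 on average, each in 8 of 10 mice. Since the types of all 3 methods entered the choice of cells for the axis, these are descriptions without a test. At 1 dpi the cells with a state were themselves low in UMIs, with medians of 1319 in 1 dpi A, 1333 in 1 dpi C and 1487 in 1 dpi D. The cells with a class outside muscle had 1543, 2351 and 1428 there, so the ranges overlapped.

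Among cells without a state, those with a class outside muscle were set against those in muscle in the 5 mice that held at least 5 of each, all uninjured or at 5 and 7 dpi. The medians were 8427 UMIs against 6748 in uninjured C, 6933 against 6305 in 5 dpi B and 20858 against 10618 in 5 dpi C. They were 14083 against 6266 in 7 dpi A and 23495 against 8803 in 7 dpi B. UMIs were 1.74-fold higher on average, in 5 of 5 mice, as were genes (exact sign-flip test, p = 0.0625 for each, adjusted p = 0.0938; 0.0625 is the smallest p that 5 mice allow). The doublet score was higher in 4 of 5 mice (exact sign-flip test, p = 0.500). With at least 3 cells of each kind, 11 mice entered, and the mean log2 UMI difference turned to -0.45 (permutation sign-flip test, p = 0.334).

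The 366 cells that were myogenic in both other methods were nearly all labelled MuSCs by Harmony (360 cells). BBKNN and Scanorama both called 293 of them Committed Progenitors, 167 of these at 3.5 dpi, 73 at 5 dpi and 50 at 7 dpi. Another 67 were MuSCs by BBKNN and Committed Progenitors by Scanorama, with 30 in uninjured muscle and 21 at 7 dpi. Thus cells in muscle classes of all 3 methods also lacked a state, 175 of 820 at 3.5 dpi, 120 of 784 at 5 dpi and 181 of 828 at 7 dpi, counting myonuclei.

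In their ribosomal and mitochondrial shares, these 366 cells lay near quiescent MuSCs of the same mice. In 13 mice with at least 5 of each, their log2 UMIs differed by -0.21 ± 0.42 (SD), with 4 of 13 mice higher. Ribosomal protein transcripts made up 21.4% against 22.7% of UMIs, and mitochondrial transcripts 13.1% against 12.8%. Transcription factor transcripts made up 4.54% against 4.06% and were higher in 11 of 13 mice. Heat shock transcripts made up 1.69% against 1.19% and were higher in 7 of 13 mice. Their median difference was 0.00512 points and the highest 4.16 points. The gap in UMIs was clearest at 3.5 dpi, with medians of 14708, 11357, 11766 and 12715 against 22001, 24617, 17168 and 15053, lower in 4 of 4 mice. In uninjured B and C and in 5 dpi A and B it had the other sign, for example 6879 against 5171 UMIs in 5 dpi B. The other states were not compared with these cells within mice. Median ribosomal protein shares over mice with at least 5 cells were 21.7% in these cells and 23.6% in quiescent MuSCs. They were 20.6% in activated MuSCs, 20.7% in committed myoblasts and 17.6% in fusing myocytes, so the nearness was not particular to quiescent cells.

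The 144 cells that were myonuclei in both other methods were labelled Myoblasts/Progenitors by Harmony in 143 cases. Of these 144 cells, 99 came from 7 dpi and 35 from 5 dpi. They had almost no mitochondrial transcripts: 73 of 144 (50.7%) had exactly 0% of UMIs from mitochondrial genes. An exact 0% was seen in 18 of the 849 other Myoblasts/Progenitors (2.12%) and in 0.358% of MuSCs. Among cells that Harmony called myonuclei the share differed widely between mice, from 0% of 193 in uninjured C to 53.7% of 203 in 5 dpi A. In the 5 dpi mice it was 53.7%, 20.9% and 28.4%, against 9 of 10, 5 of 5 and 12 of 20 of the cells without a state. In the 7 dpi mice it was 4.56%, 20.2% and 19.4%, against 4 of 25, 18 of 39 and 22 of 35. Mitochondria lie outside the nucleus, and their transcripts are scarce in preparations of nuclei. The samples here were cell suspensions, and the counts were taken after the authors removed ambient RNA. Whether any of this bears on the 0% values was not tested.

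Their transcript content lay between that of myonuclei and that of fusing myocytes, the state of cells that merge into fibres. In 5 dpi A, B and C they had medians of 2658, 3908 and 5214 UMIs, against 17048, 13243 and 24937 in fusing myocytes and 2628, 1532 and 2011 in cells that were myonuclei in all methods. In 7 dpi A and B they had 5704 and 7035 UMIs, against 12899 and 20526 in fusing myocytes and 2154 and 2419 in myonuclei. In 7 dpi C, where only 3 fusing myocytes were found, they had 7394 against 2650 in myonuclei. Medians of log2 UMIs were lower than in fusing myocytes in 5 of 5 mice and higher than in myonuclei in 5 of 6, with a difference of -0.014 in 5 dpi A, and those of log2 genes were higher than in myonuclei in 6 of 6. The mitochondrial share averaged 0.0816% against 9.80% in fusing myocytes over 5 mice, and 0.0680% against 0.902% in myonuclei over 6 mice.

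**Figure D3:**
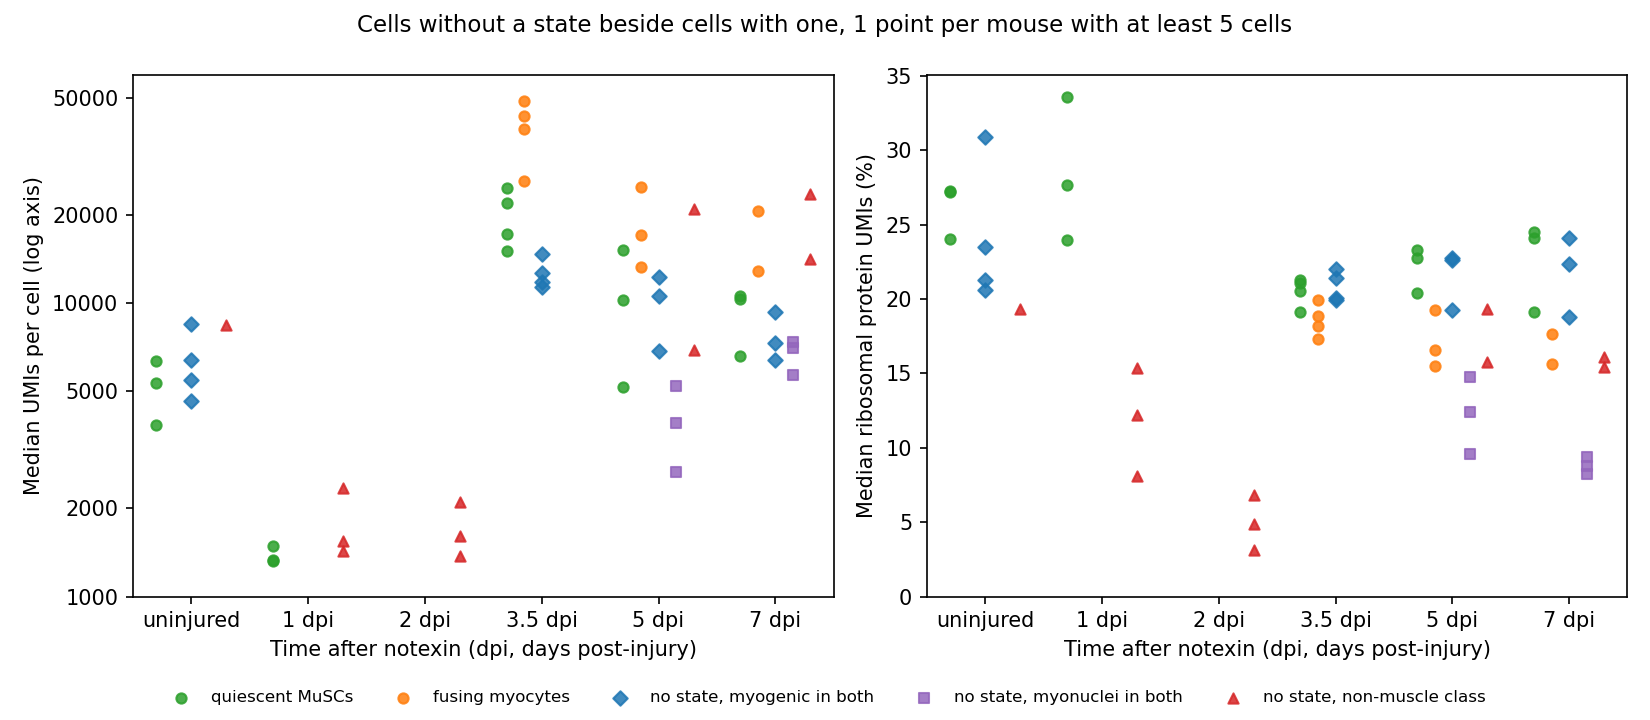
Median UMIs per cell (left, log axis) and median percent of UMIs from ribosomal protein genes (right) in each mouse with at least 5 cells of a kind, by time point. Circles are cells with a state (green, quiescent MuSCs; orange, fusing myocytes), and the other symbols are cells without a state by the class that BBKNN and Scanorama gave them. Red triangles, with a class outside muscle, stand at 1373 to 2351 UMIs at 1 and 2 dpi; purple squares, myonuclei in both methods, stand below fusing myocytes at 5 and 7 dpi.

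The share without a state was compared between the Harmony labels in the 10 mice with at least 5 cells of each, all at 3.5, 5 or 7 dpi. The direction turned with time. At 3.5 dpi 6.56%, 3.23%, 3.65% and 1.80% of Myoblasts/Progenitors lacked a state, against 45.0%, 37.8%, 42.5% and 40.9% of MuSCs, lower in 4 of 4 mice. At 5 dpi the values were 15.1%, 10.8% and 22.8% against 15.3%, 24.6% and 13.8%, with 1 of 3 mice higher. At 7 dpi 30.1%, 36.4% and 65.5% of Myoblasts/Progenitors lacked a state, against 14.7%, 16.1% and 13.3% of MuSCs, higher in 3 of 3 mice. Over all 10 mice the difference of -6.81 points did not pass (permutation sign-flip test p = 0.490, 4 of 10 mice higher), with opposite directions at 3.5 and 7 dpi. It was -3.72 to -3.22 points without any one of the mice at 3.5 dpi and -13.4 points without 7 dpi C. At 3.5 dpi the MuSCs without a state were 168 of 402, chiefly the cells myogenic in both other methods. At 7 dpi the Myoblasts/Progenitors without a state were 113 of 282, chiefly the cells that were myonuclei in both.

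Cells without a state were then set against all cells with a state in the 18 mice with at least 5 of each. Uninjured D, 1 dpi B and 2 dpi B had 4 cells with a state each and were left out. Over these mice log2 UMIs differed by -0.20 ± 0.65 (SD), log2 genes by -0.15 ± 0.44 and the doublet score by 0.00144 ± 0.0788. None of the 3 passed (permutation sign-flip test, p = 0.220, 0.179 and 0.943, adjusted p = 0.330, 0.330 and 0.943), and 0 had an unadjusted p under 0.05. The ribosomal protein share was lower in 15 of 18 mice, 15.7% against 23.6%. The heat shock share was lower in 15 of 18, 1.06% against 1.16%, and the transcription factor share higher in 13 of 18, 3.66% against 3.33%.

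The UMI difference varied with time (permutation F test over 18 mice, p = 0.00107, adjusted p = 0.00321), as did that of genes (p = 0.00313, adjusted p = 0.00469), whereas the doublet score did not pass (p = 0.112). At 3.5 dpi cells without a state had medians of 13248, 10456, 11750 and 11982 UMIs against 31933, 30175, 21128 and 19394 in cells with a state, a mean log2 difference of -1.08. In uninjured A, B and C they had 7282, 5032 and 7834 UMIs against 6074, 3857 and 5349, a mean log2 difference of 0.40. It was 0.37 and 0.19 at 1 and 2 dpi, and -0.37 and -0.26 at 5 and 7 dpi. Cells with a state included many fusing myocytes at 3.5 dpi (185 of 645 cells), and its part in the difference was not tested. Among progenitors alone, in 7 mice, UMIs, genes and doublet score were each lower in cells without a state, with log2 differences of -0.82 and -1.06 and a score difference of -0.0328 (permutation sign-flip test, exact, adjusted p = 0.0313 for each). With only cells placed in muscle by both other methods, in 13 mice, UMIs and genes were lower, with log2 differences of -0.42 and -0.31 (permutation sign-flip test, adjusted p = 0.0352 for both). Both sets include the cells that were myonuclei in both other methods. Over all mice these were 143 of the 184 progenitors without a state, and their part in the differences was not tested.

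The cells without a state at 1 and 2 dpi held few transcripts. Their median log2 UMIs per mouse averaged 10.82 ± 0.29 (SD, n = 4) at 1 dpi and 10.88 ± 0.55 (SD, n = 3) at 2 dpi. It was 12.78 ± 0.33 (SD, n = 4) in uninjured muscle, 13.53 ± 0.14 (SD, n = 4) at 3.5 dpi, 12.98 ± 0.40 (SD, n = 3) at 5 dpi and 12.95 ± 0.27 (SD, n = 3) at 7 dpi. As at 1 dpi, cells with a state were low in UMIs at 2 dpi, with medians of 1568 in 2 dpi A and 1925 in 2 dpi C. Cells without a state had 1373 and 2873 in these mice. Of 13 measures, 11 could be tested and 9 differed between time points (permutation F test, adjusted p = 0.00011 for UMIs and for genes). The ribosomal protein share averaged 22.8%, 17.1%, 5.41%, 20.4%, 17.4% and 12.4% in order of time from uninjured muscle, with its low at 2 dpi (permutation F test, adjusted p = 0.00445). With at least 750 genes per cell this call was lost (permutation F test, adjusted p = 0.0993). The mitochondrial share averaged 15.8%, 11.1%, 17.8%, 11.7%, 9.81% and 4.22% in the same order, with its low at 7 dpi (permutation F test, adjusted p = 0.00607).

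The remaining measures that passed were the shares of transcripts from heat shock, transcription factor, lincRNA, protein coding and bidirectional promoter lncRNA genes. The heat shock share was 1.84% in uninjured muscle and 0.756% at 2 dpi (permutation F test, adjusted p = 0.00476). The transcription factor share was 5.29% in uninjured muscle and 2.58% at 1 dpi (permutation F test, adjusted p = 0.00518), and that of lincRNA 2.58% in uninjured muscle and 0.787% at 3.5 dpi (adjusted p = 0.00198). By means over cells in place of medians, the lincRNA call was lost (permutation F test, adjusted p = 0.0775). Protein coding transcripts made up 89.2% in uninjured muscle and 93.3% at 3.5 dpi (permutation F test, adjusted p = 0.00431), and bidirectional promoter lncRNA 0.0237% and 0.0173% (adjusted p = 0.000367). For protein coding transcripts the value at 2 dpi, 87.4%, lay below uninjured muscle. The largest difference was 4.16 points by medians and -5.64 points by means over cells, which may belong to different time points. The median of bidirectional promoter lncRNA was 0 in all 7 mice at 1 and 2 dpi, whose cells held few UMIs, and above 0 in the other 14. Antisense and snoRNA shares did not pass (permutation F test, adjusted p = 0.412 and 1), and the medians of miRNA and snRNA shares were 0 in every mouse. The mix of classes from the other methods moved with time as well, and its part in these changes was not tested. With cells of at least 1000 genes, 2000 UMIs and at most 15% mitochondrial transcripts, 16 mice remained and 3 of the measures passed, namely UMIs, genes and bidirectional promoter lncRNA. For genes the largest log2 difference from uninjured muscle was -1.43, at 2 dpi, in all cells and 0.76 in these. These values may belong to different time points, so they do not show that a direction turned. In all cells log2 genes averaged 11.72 at 3.5 dpi and 10.89 in uninjured muscle.

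Many of these cells held few genes. Of the 812, 165 (20.3%) had under 750 genes, against 60 of 2133 (2.81%) with a state. These counts pool mice: 241 of the 812 came from 1 and 2 dpi, where 28 and 18 cells had a state. Within mice the direction varied at these time points. In 1 dpi A, C and D median genes were 733, 1130 and 721 without a state, against 564, 688 and 678.5 with one. In 2 dpi A and C they were 676.5 and 695, against 768.5 and 734.5. The authors name 750 genes as the minimum of their filter, and why cells under it are in the tables is not known. Of those 165, 141 had a class outside muscle, 17 were myonuclei in both methods and 6 were myogenic in both.

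Share and library measures were compared over mice. The median UMIs of stem and progenitor cells fell into separate clusters, 1377 to 2603 in the 7 mice at 1 and 2 dpi and 3986 to 27148 in the other 14, so relations are given within these clusters, a split chosen after seeing the data. Sequencing saturation, number of cells, median UMIs and the SoupX contamination fraction made 8 relations within the clusters. In the 7 mice at 1 and 2 dpi, the share without a state was lower at higher saturation (Pearson's r = -0.967 with an exact permutation p of 0.000794, adjusted to 0.00635, and Spearman's rho = -0.929 with an exact p of 0.00675, adjusted to 0.0270). Without 1 dpi B and 2 dpi A, the mice farthest from the median saturation, r was -0.877. The share was higher with more cells in the library there (r = 0.831 with an exact permutation p of 0.0298, adjusted to 0.0794, and rho = 0.964 with an exact p of 0.00278, adjusted to 0.0222). Without the same mice r was 0.923.

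In the other 14 mice the relation with saturation had the opposite sign (r = 0.764, with a permutation p of 0.00266, adjusted to 0.0106). Spearman's rho was 0.464 and did not pass (permutation p = 0.0991, adjusted to 0.198). The relation rested on uninjured D and 7 dpi C, without which r was 0.399. That with the number of cells had the opposite sign as well and did not pass (r = -0.556 with a permutation p of 0.0401, adjusted to 0.0803, and r = -0.696 without 3.5 dpi C and 5 dpi B). Neither median UMIs (r = -0.166 and -0.337) nor the SoupX fraction (r = 0.495 and -0.327) passed in either cluster (permutation tests, adjusted p = 0.690, 0.298, 0.298 and 0.298). The clusters join time points, and the part of time in these relations was not tested.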

How the data were processed

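Single-cell libraries (10x Genomics 3' chemistry) of 21 muscles were given as 1 table of cells per sample. Per the labels, the authors aligned reads with Cell Ranger 3.1.0 to mm10 and used Seurat 3.1.5. The authors removed ambient RNA with SoupX, so the deposited UMIs per cell are expected counts. The deposited number of genes, of cells and of reads are counts. Shares of gene classes, sequencing saturation and reads in cells were deposited as percent, and the gene lists behind the classes were not given in the sources used here. The DoubletFinder score and the SoupX estimate were deposited as a fraction. The authors also filtered cells (750 genes as the minimum, though cells under it are in the tables) and removed doublets. The states, labels and classes are theirs. The 87822 cells of the tables are not the total that the authors state for these samples, and the reason is not known.

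Members and lists were chosen with earlier results of these data known. Shares were computed per mouse, and medians per mouse for mice with at least 5 cells of each kind. Tests used Python 3.11.15 with numpy 2.4.6, scipy 1.17.1 and pandas 2.3.3, and figures matplotlib 3.10.9. All tests were two-sided except the F tests, which counted resamples with F at or above the observed value. Time points were compared by permutation F tests (100000 resamples, smallest p 1e-05), pairs within mice by sign flips over all patterns, and single time points by exact permutation tests, with Benjamini-Hochberg adjustment within each family at 0.05. Tests were checked on simulated data. The 95% intervals and the limit of 3 counts for a count of 0 cover counting error only. Labels of other methods were named where they held at least 20 of the cells. Alternatives were other minimums (3 and 10 cells), filters, denominators, summaries and leaving out each mouse. Values of single genes were not used here.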

Additional observations from a re-analysis of the deposited data

Results flagged for a closer look

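The difference between cells without and with a state varied over time points beyond the spread between mice for UMIs (permutation F test over 18 mice, adjusted p = 0.00321) and for genes (adjusted p = 0.00469). Mean log2 UMI differences were 0.40 in uninjured muscle and -1.08 at 3.5 dpi. For genes they were 0.31 and -0.51, while the highest and lowest were 0.39 at 1 dpi and -0.52 at 7 dpi.

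The difference between Myoblasts/Progenitors and MuSCs in the share without a state had opposite signs at 3.5 and 7 dpi. The share was lower in progenitors in 4 of 4 mice at 3.5 dpi (3.81% against 41.5% on average) and higher in 3 of 3 at 7 dpi (44.0% against 14.7%). The permutation F test over the 10 mice at 3.5, 5 and 7 dpi (p = 0.00051) was chosen after this turn in sign had been seen in the same mice, so its p restates the observation and is no independent support for it.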

How the results depend on the processing

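Leaving out each mouse in turn lost the call for the share of all cells in 2 cases, and its difference ranged from 1.07 to 1.63 points. Left out in turn, no mouse changed the call for the share without a state (44.5 to 55.9 points) or with a class outside muscle (62.0 to 72.6 points). The doublet score difference between cells without and with a state ranged from -0.0122 to 0.0112 and never passed. Among progenitors alone the largest difference of the share without a state was -71.2 points, at 3.5 dpi (permutation F test over 20 mice, adjusted p = 0.00134), where the 3 uninjured mice had 2 to 4 such cells. It was 32.5 points over all myogenic cells and -16.5 points, at 1 dpi, among cells placed in muscle by all methods. The latter did not pass (permutation F test over 21 mice, adjusted p = 0.241). That setting was chosen after seeing the data and removes only cells without a state. The cause was not tested.

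Of the UMI, gene and doublet score tests between cells without and with a state, 3 passed in progenitors alone (score -0.0328) and 2 with members placed in muscle, against 0 in the main comparison. The score difference was -0.00437 with at least 3 cells and -0.0121 by means, and the gene difference was 0.0216 in MuSCs alone. At a fixed number of UMIs the log2 gene difference was -0.0312, against -0.145 in the main comparison, and did not pass. With at least 3 cells, members with a class outside muscle differed from those in muscle by -0.45 in log2 UMIs and -0.20 in log2 genes. Of 9 measures that varied over time, 3 passed under the strict filter, where the largest gene difference was 0.76 (log2) and that of snoRNA 0.00187 points. It was 0.84 for genes with at least 750 genes per cell. By means, the largest differences were -5.64 points for protein coding and 0.00902 for snoRNA transcripts.

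Over all mice, which join both clusters of median UMIs, 1 of 4 library measures (median UMIs) was related to the share, and 0 with time point means removed (r = 0.0707 for median UMIs and -0.0167 for saturation). Without the 2 farthest mice r was -0.00584 for saturation and -0.203 for number of cells, whose rho was -0.0786. The cause was not tested.

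Replicate letters did not pair the samples: deviations from the group means correlated by -0.0165 on average over 48 same-letter pairs, of which 20 were over 0.1. With the letter as a block, the 3 shares differed between time points as before (49.4, 1.29 and 69.1 points; permutation F test within letters, adjusted p = 0.000285, 0.00582 and 0.000795). Counting error is wide for uninjured D and 1 dpi B, with 9 stem and progenitor cells each (95% interval 21.2% to 86.3%).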
